A study of Mus musculus with 142 samples.

Results

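The inhibitor of DNA binding genes Id1, Id2, Id3 and Id4 were followed in cultured mouse oligodendrocyte progenitor cells (OPCs). The 4 genes were chosen by name and make up the whole Id family of the mouse. They are 4 of the 47665 genes that had a count, and all 4 were among the 23006 genes with enough counts to be tested. OPCs carried either the H3.3 K27M mutation (K27M) or were littermate controls, and came from the brainstem or from the dorsal telencephalon. K27M mice held a knock-in of the mutation in H3f3a behind a loxP-flanked stop, which Cre under the human GFAP promoter (hGFAP-Cre) removes in neural stem and progenitor cells, so that their glial and many of their neuronal descendants carry it. Tissue of pups at postnatal days 5 to 7 was pooled over litters by region and genotype, depleted of endothelial cells and microglia on a lectin, and panned on an antibody to the PDGF receptor alpha. All groups then shared the same media. Day 0 cells were kept in proliferation medium with PDGF, neurotrophin-3, CNTF and forskolin, and days 1, 2 and 5 were counted from the change to differentiation medium with thyroid hormone, CNTF and forskolin. Region, genotype and day set 16 groups, each with 3 cultures, numbered 38, 41 and 42. A culture was sequenced from up to 3 wells per day, which gave 71 K27M and 71 control libraries. Wells share the cells of their culture, so counts were summed over the wells of a culture and day, and n is 3 cultures in every group below. Wells of a culture and day, and the days of a culture, were in part from different passages. Values are CPM (each library's counts brought to a total of 1e6 with edgeR's TMM factors), fold changes are on the log2 scale with their SE, and a gene passed, or was called, at a Benjamini-Hochberg adjusted p below 0.05 in edgeR's quasi-likelihood test with the culture number within a region as a block. The block takes spread shared by same-numbered cultures of a region out of the error, also in comparisons between regions. Days of a culture were treated as independent, so the p-values do not measure the full spread between cultures.

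Id proteins are helix-loop-helix (HLH) proteins without the basic stretch that binds DNA. They pair with the E proteins (the products of Tcf3, Tcf4 and Tcf12) and so keep these from pairing with lineage factors of the basic HLH class such as Olig1 and Olig2. Id genes are classical early targets of bone morphogenetic protein (BMP) signalling, in which receptors phosphorylate Smad1, Smad5 and Smad9, which act with Smad4. In the oligodendrocyte lineage Id2 and Id4 are known as inhibitors of differentiation, BMPs are known to turn OPCs toward an astrocyte fate, and Id1 and Id3 are abundant in astrocytes.

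The HLH stretch is shown because it is what makes the 4 genes one family and what separates their reads. It is given as 126 coding bases from the GENCODE transcripts, 5′ to 3′ on the coding strand, with the bases shared by all 4 genes in capitals.
Id1: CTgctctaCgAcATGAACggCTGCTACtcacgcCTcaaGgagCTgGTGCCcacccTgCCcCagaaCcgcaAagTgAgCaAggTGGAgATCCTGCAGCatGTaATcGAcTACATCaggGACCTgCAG
Id2: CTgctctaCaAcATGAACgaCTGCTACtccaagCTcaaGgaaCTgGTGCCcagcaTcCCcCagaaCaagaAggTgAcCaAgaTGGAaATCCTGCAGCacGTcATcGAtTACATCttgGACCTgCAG
Id3: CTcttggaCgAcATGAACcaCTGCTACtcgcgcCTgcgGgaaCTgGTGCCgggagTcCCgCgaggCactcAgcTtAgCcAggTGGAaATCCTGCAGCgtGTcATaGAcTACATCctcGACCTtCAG
Id4: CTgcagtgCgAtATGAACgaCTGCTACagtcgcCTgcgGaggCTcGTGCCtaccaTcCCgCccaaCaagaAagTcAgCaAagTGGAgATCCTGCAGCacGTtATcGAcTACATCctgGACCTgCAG

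Of the 126 bases, 71 were identical in all 4 genes. Id1 and Id2 were most alike, with 104 identical bases, and Id3 was the farthest, with 88 or 89 bases in common with each of the others. The longest run shared by any pair was 19 bases (Id2 and Id3), and no run of 31 bases occurred in more than 1 Id gene, so reads of the 4 genes can be told apart. Reads shared with other loci are a limit for 2 members. Id2 has 39 runs of 31 bases in common with its processed pseudogene Gm6175, and Id4 has 117 with the long non-coding gene Gm49291 and 37 with the antisense gene A330033J07Rik. On GRCm38, Id1 lies at chr2:152736251-152737410 (plus strand), Id2 at chr12:25093799-25097140 (minus strand), Id3 at chr4:136143497-136145755 (plus strand) and Id4 at chr13:48261228-48266026 (plus strand), and the stretch shown is in exon 1 of each gene.

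The promoter of Id4 is shown because Id4 passed the test between K27M and control on more days than any other member. It runs over chr13:48260866-48261165 (GRCm38.p6, plus strand), from 250 bases before to 50 bases after the RefSeq start, and capitals mark matches to the BMP Smad boxes GGCGCC and GGAGCC.
Id4 promoter: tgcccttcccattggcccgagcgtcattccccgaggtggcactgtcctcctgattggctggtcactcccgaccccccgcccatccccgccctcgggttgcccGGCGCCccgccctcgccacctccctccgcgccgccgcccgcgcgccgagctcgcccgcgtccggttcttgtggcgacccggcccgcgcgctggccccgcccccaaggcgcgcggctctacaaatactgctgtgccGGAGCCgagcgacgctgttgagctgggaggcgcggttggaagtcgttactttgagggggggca

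GGCGCC begins 148 bases and GGAGCC 13 bases before the RefSeq start of Id4. Searched on both strands, GGCGCC was in 11.9% and GGAGCC in 31% of 32544 RefSeq promoters of the same length, so neither match is rare. The Id2 promoter held 1 match to each, at 231 and 88 bases before its start, and the Id3 promoter held GGAGCC on the opposite strand and CAGAC (in 49.5% of promoters) on either strand. The Id4 promoter had a GC content of 73.3%, against a median of 53.0% over all promoters. The table of RefSeq promoters matched 3 of the 4 genes, without Id1. These matches are letters in a window and were not tested for binding.

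Depth per library ran between 26.6 M and 455 M pairs of reads (median 46.9 M), and the deepest was a control brainstem well of culture 38 at day 5. Prm1, of which the Cre construct carries sequence by the study's methods, checked the labels: it had 1440 to 7675 counts in each of the 71 K27M libraries and 6 counts in all in the 71 control libraries. H3f3a itself had 394 to 692 CPM in K27M and 234 to 543 CPM in control cultures. In the study's single-cell methods the controls have no Cre and express H3f3a from 1 allele, as the stop is still in place. OPC markers were present in every culture and day (Pdgfra 74.2 to 1592 CPM). The endothelial marker Cldn5 stayed at or below 0.031 CPM and the microglial C1qa at or below 0.825 CPM, with C1qa at 0 in 33 of the 48 cultures and days. Other markers of these cells reached more, among them the endothelial Kdr (up to 15.5 CPM) and Egfl7 (3.21 CPM) and the microglial P2ry12 (4.03 CPM). At day 2 the summed level of the endothelial markers was 8.39 to 15.1 CPM in K27M and 3.81 to 6.21 CPM in control brainstem. In the telencephalon it was 8.70 to 13.7 CPM in K27M and 3.72 to 6.09 CPM in control. The part of these markers in the Id results was not tested. The astrocyte gene Gfap ranged widely, from 3.17 to 8377 CPM, and its values are given beside each Id result it moved with. RNA was measured in bulk, so fewer cells of a type and less RNA per cell cannot be told apart. The batch labels split by region and, within each region, set culture 38 apart from cultures 41 and 42. Brainstem cells had been passaged more often (1 to 6 passages, mean 3.83, in K27M and 3 to 8, mean 5.51, in controls) than telencephalic cells (1 to 4 passages, means 2.11 in K27M and 2.14 in controls).

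All 4 Id genes had counts in every library, Id2 and Id3 most and Id4 least. Levels between genes are compared in TPM, which takes transcript length into account, summed over all annotated transcripts of a gene, coding or not. Id2 had a median of 16.4 TPM (lowest well 2.00, highest 44.5), Id3 10.2 TPM (2.46 to 86.9), Id1 4.94 TPM (0.433 to 41.2) and Id4 0.926 TPM (0.211 to 11.4). Id2 was the highest of the 4 in 90 wells and Id3 in the remaining 52, and Id4 was the lowest in 140. Id2 was also the steadiest member. Its CPM spanned 9.31-fold over all wells, against 38.5-fold for Id3, 88.3-fold for Id4 and 119-fold for Id1. Cultures of 1 group differed from each other by more than wells of 1 culture did, with SDs on the log2 CPM scale of 0.72 and 0.48 for Id1, 0.40 and 0.25 for Id2, 0.65 and 0.38 for Id3 and 0.65 and 0.40 for Id4.

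The mix of the family changed with time in every arm. Id2 made up 66.1% of the summed Id TPM in K27M brainstem OPCs at day 0 and 78.1% in control brainstem, 70.8% in K27M telencephalon and 51.7% in control telencephalon. At day 5 the share of Id2 was 31.4% in K27M brainstem, 38.1% in control brainstem, 31.5% in K27M telencephalon and 24.6% in control telencephalon, and Id3 was the largest member in each of these groups, up to 47.8% in control telencephalon. Id4 reached 7.99% and 8.98% at day 5 in K27M brainstem and K27M telencephalon, against 3.66% and 5.89% in the controls of the same regions. These shares are ratios of group means and describe the groups without a test.

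**Figure D1:**
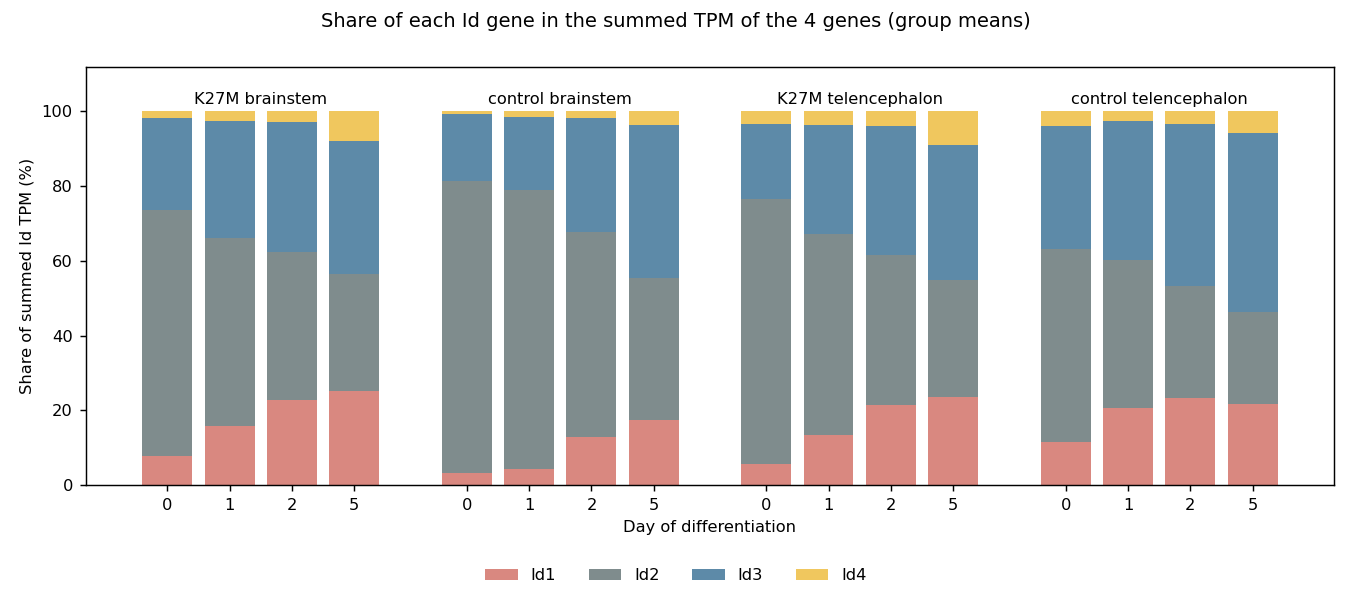
Share of Id1, Id2, Id3 and Id4 in the summed TPM of the 4 genes (y axis, %) by day of differentiation (x axis) in the 4 arms, from group means of 3 cultures. Id2 (grey) takes 51.7% to 78.1% at day 0 and 24.6% to 38.1% at day 5. Id3 (blue), with its non-coding transcripts counted, is the largest share in every arm at day 5.

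Most of the RNA of each gene came from 1 annotated transcript. Id1-201 held a median of 93.2% of Id1 TPM over the 48 cultures and days, Id2-201 89.0% of Id2 and Id3-201 74.1% of Id3, and Id4 has a single transcript. The second largest form of Id3, Id3-203, keeps an intron and held a median of 23.2% (14.7% to 55.5%). Ranked over the 16 groups, mean CPM was highest in control telencephalon at day 5 for each of the 4 genes. Id1 and Id4 were lowest in control brainstem at day 0. The cultures of neighbouring groups in this order overlapped in 15 of 15 places for Id1, Id2 and Id3 and in 12 of 15 for Id4. The 3 steps of Id4 without overlap were from K27M brainstem at day 5 to control telencephalon at day 2, from K27M brainstem at day 0 to control brainstem at day 1 and from control brainstem at day 2 to control brainstem at day 0.

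**Figure D2:**
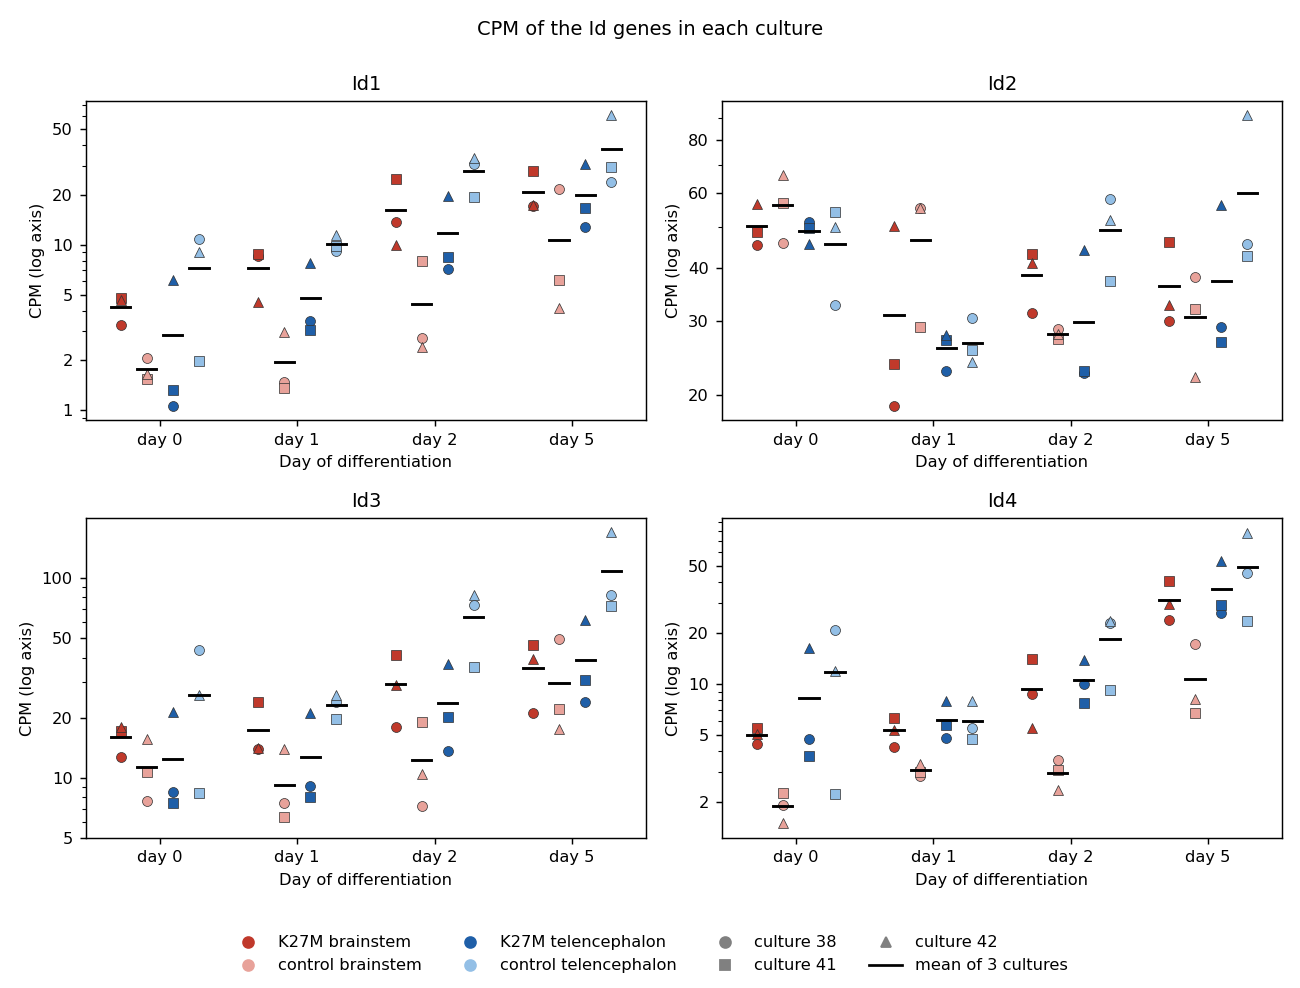
CPM (y axis, log scale) of each Id gene by day of differentiation (x axis) in each of 3 cultures (marker shape) of K27M brainstem, control brainstem, K27M telencephalon and control telencephalon (colour), with a bar at the mean of the cultures. Id1, Id3 and Id4 climb toward day 5 in all arms, control brainstem lies low for Id1 and Id4 up to day 2, and Id2 has no such climb.

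The first question was how the Id genes behave as OPCs differentiate. From day 0 to day 5, Id1, Id3 and Id4 rose in all 4 arms and Id2 was not called higher in any. Id1 at day 5 had 17.2, 28 and 17.4 CPM in K27M brainstem cultures 38, 41 and 42, against 3.29, 4.75 and 4.63 CPM at day 0, without overlap. The log2 fold change of Id1 was 2.26 ± 0.53 (SE, edgeR adjusted p = 0.000507). In control brainstem Id1 had 21.6, 6.16 and 4.12 CPM at day 5, against 2.08, 1.55 and 1.66 CPM at day 0 (2.54 ± 0.54, edgeR adjusted p = 0.000152). Culture 38 was far above cultures 41 and 42 at day 5. Id1 changed by 3.05 ± 0.55 in K27M telencephalon and by 2.33 ± 0.53 in control telencephalon.

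Id4, the least abundant member, had 23.7, 40.7 and 29.8 CPM at day 5 in K27M brainstem, against 4.42, 5.46 and 5.07 CPM at day 0 (log2 fold change 2.64 ± 0.43, edgeR adjusted p = 5.11e-06). Control brainstem had 17.3, 6.75 and 8.19 CPM at day 5, against 1.91, 2.26 and 1.5 CPM at day 0 (2.53 ± 0.44, adjusted p = 8.69e-06). In the telencephalon the log2 fold change of Id4 was 2.32 ± 0.43 in K27M and 2.07 ± 0.43 in control. Id3 rose in the brainstem by 1.12 ± 0.43 in K27M (edgeR adjusted p = 0.0272) and 1.53 ± 0.44 in control (adjusted p = 0.00324), and by 1.71 ± 0.44 in K27M telencephalon and 2.01 ± 0.44 in control telencephalon. The K27M brainstem call of Id3 was lost without culture 41 (adjusted p = 0.136) or culture 42 (adjusted p = 0.114) and without the culture block (adjusted p = 0.0709), and the control brainstem call without culture 38 (adjusted p = 0.191). Limma on TPM called Id3 in neither brainstem arm (adjusted p = 0.0638 in K27M and 0.109 in control).

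Id2 behaved differently from the others. At day 5 it had 37.9, 32.0 and 22.0 CPM in control brainstem, against 45.7, 56.7 and 66.2 CPM at day 0, and fell by 0.84 on the log2 scale (SE 0.30, edgeR adjusted p = 0.0165). The call was lost under DESeq2 (adjusted p = 0.0507), without culture 41 (0.0792) and without culture 42 (0.144). The fold changes of Id2 at day 5 were -0.46 ± 0.30 in K27M brainstem, -0.46 ± 0.30 in K27M telencephalon and 0.34 ± 0.30 in control telencephalon, none past the threshold. At day 1 Id2 had 22.9, 27 and 27.7 CPM in K27M telencephalon, against 51.3, 49.5 and 45.4 CPM at day 0, with a fold change of -0.93 ± 0.30 (edgeR adjusted p = 0.019), a call lost without culture 38 (0.133) and without culture 41 (0.121). The other arms had Id2 at -0.73 ± 0.30 (K27M brainstem), -0.26 ± 0.30 (control brainstem) and -0.75 ± 0.30 (control telencephalon) at day 1. No other Id gene passed the test at day 1 in any arm.

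Differentiation changed most genes. At day 5, 55.1% of all tested genes passed in K27M brainstem, 62% in control brainstem, 61.1% in K27M telencephalon and 60.1% in control telencephalon, so that 3, 4, 3 and 3 of the 4 Id genes passing is a share that many sets of genes would have. At day 1 the shares of all genes were 16.4%, 16.2%, 28.3% and 32.8% in the same order of arms. Of 15 astrocyte markers, 10, 9, 11 and 12 were higher and 0, 1, 1 and 0 lower at day 5, with median log2 fold changes of 2.74, 2.17, 3.21 and 3.38, while the median over all genes lay between 0.07 and 0.12. Gfap, the intermediate filament gene of astrocytes, rose by 4.89 ± 1.15, 6.16 ± 1.27, 5.74 ± 1.21 and 5.21 ± 1.17. Their part in the rise of the Id genes was not tested. All 10 mature oligodendrocyte markers were higher and all 10 cycling markers lower at day 5 in each arm.

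The second question was what K27M changed in brainstem OPCs. Id1 and Id4 were higher in K27M, most clearly at day 2, and 14 of the 16 fold changes over 4 genes and 4 days were above 0. These 16 values share cultures and are not independent. Of the 16, 3 passed the test. Id1 at day 2 had 13.7, 24.9 and 9.95 CPM in K27M cultures 38, 41 and 42, against 2.73, 7.95 and 2.41 CPM in controls. Every K27M culture lay above every control culture. The log2 fold change was 1.91 ± 0.52 (edgeR adjusted p = 0.0325). Id4 at day 2 had 8.67, 13.9 and 5.49 CPM in K27M, against 3.55, 3.08 and 2.34 CPM in controls, again without overlap (1.61 ± 0.42, adjusted p = 0.025). At day 5 it had 23.7, 40.7 and 29.8 CPM in K27M, against 17.3, 6.75 and 8.19 CPM in controls (1.53 ± 0.42, adjusted p = 0.0159). Here the control of culture 38 stood well above the controls of cultures 41 and 42 but below all K27M cultures.

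Of all tested genes, 1.32% passed between K27M and control brainstem at day 0, 4.35% at day 1, 3.78% at day 2 and 11.5% at day 5, against 0, 0, 2 and 1 of the 4 Id genes. Id1 was just short of the threshold at day 1 (1.77 ± 0.53, edgeR adjusted p = 0.0509), with 8.53, 8.77 and 4.49 CPM in K27M and 1.49, 1.36 and 2.99 CPM in control. Id1 stood at 1.27 ± 0.52 at day 0 and 0.99 ± 0.52 at day 5. Id4 stood at 1.42 ± 0.42 at day 0 and 0.77 ± 0.42 at day 1. Id3 had 17.9, 41.2 and 29.2 CPM in K27M and 7.20, 18.9 and 10.5 CPM in controls at day 2, where K27M culture 38 lay below control culture 41 (1.28 ± 0.43, adjusted p = 0.095), and its fold changes were 0.51, 0.87 and 0.09 at days 0, 1 and 5. Id2 lay between -0.63 ± 0.30 at day 1 and 0.45 ± 0.30 at day 2.

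Each of the 3 calls was lost without culture 41 and without culture 42 (when Id1 at day 1 passed instead), and Id1 at day 2 was lost without culture 38. The 3 calls were also lost without the culture block (0 of 16) and with passage as a covariate (0 of 16, Id4 at day 5 then 0.92 with an adjusted p of 0.136). With the 2 control cultures 41 and 42 of day 5 left out, a choice made after seeing the data, culture 38 was the sole control. Id4 at day 5 then stood at 0.72. Gfap did not pass (2.29 ± 1.03 at day 2, edgeR adjusted p = 0.239) and leaned the same way: at day 2 it had 101, 189 and 51.9 CPM in K27M, against 12.9, 50.03 and 10.6 CPM in control, and at day 5 383, 1080 and 648 CPM, against 928, 51.3 and 49.4 CPM. The summed level of the 15 astrocyte markers was 545 to 934 CPM in K27M and 297 to 495 CPM in control at day 2, and 2298 to 4025 CPM and 565 to 3769 CPM at day 5. Of the 15 markers, 2 were called higher at day 2 and 1 at day 5. Their part in the Id result was not tested.

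**Figure D3:**
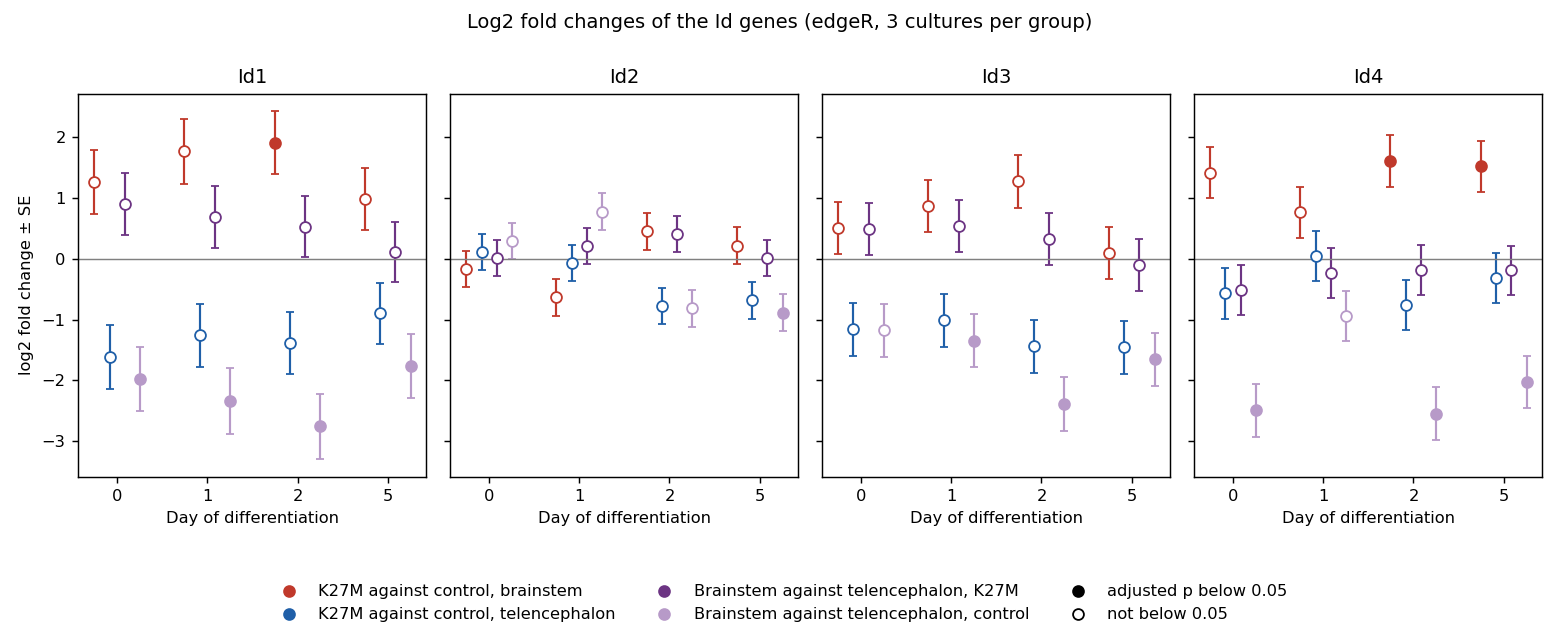
Log2 fold change ± SE (y axis) of each Id gene by day of differentiation (x axis) for K27M against control in the brainstem and in the telencephalon and for brainstem against telencephalon in K27M and in control, with filled points where the edgeR adjusted p is below 0.05. K27M against control lies mostly above 0 in the brainstem and below 0 in the telencephalon, and the regional difference is filled in 11 places in controls and in none in K27M.

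In telencephalic OPCs the Id genes leaned the other way, without a call. K27M cultures had lower values in 14 of the 16 fold changes, 9 of them with an unadjusted p below 0.05, but 0 of 16 passed edgeR's adjusted test. The 16 values share cultures, and Id1, Id3 and Id4 ran together, so they are not independent. The share of all genes at that unadjusted p is not given here. DESeq2 called 1 lower (and 0 higher), limma on TPM called 0, and edgeR with wells as samples called 11 lower. Of all tested genes, 0.335% passed at day 0, 4.41% at day 1, 4.59% at day 2 and 1.98% at day 5. Id3 came nearest. It had 13.7, 20.1 and 37.1 CPM in K27M at day 2, against 73.6, 35.8 and 82.7 CPM in control (-1.44 ± 0.43, edgeR adjusted p = 0.0505), and 24.1, 31 and 61.9 CPM at day 5, against 82.8, 72.9 and 170 CPM (-1.46 ± 0.43, adjusted p = 0.0703). The groups overlapped at day 2, where K27M culture 42 exceeded control culture 41, and did not at day 5. At day 2 that K27M culture held a passage 1 well with 54.6 CPM of Id3, where no other well of the group passed 30.3 CPM.

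Id1 had 7.12, 8.44 and 19.7 CPM in K27M telencephalon at day 2, against 30.9, 19.5 and 33.2 CPM in control (-1.38 ± 0.51, edgeR adjusted p = 0.114). At day 0 it had 1.06, 1.33 and 6.11 CPM, against 10.8, 2.00 and 9.06 CPM (-1.61 ± 0.53, adjusted p = 0.21). Culture 42 was the highest K27M culture and culture 41 the lowest control culture, so the groups overlapped. Id4 stood between -0.75 ± 0.41 (day 2) and 0.06 ± 0.41 (day 1), and Id2 between -0.77 ± 0.30 (day 2) and 0.12 ± 0.30 (day 0). Gfap had 48.4, 57.9 and 257 CPM in K27M at day 2, against 1128, 209 and 1284 CPM in control, and 3.20, 12.4 and 155 CPM at day 0, against 181, 8.73 and 245 CPM. Of 15 astrocyte markers, 2 (Slc1a3 and Slc4a4) were called lower at day 2 (edgeR adjusted p 0.0331 and 0.0241). Their part in these values was not tested.

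Whether K27M acted differently in the 2 regions was tested as the difference of its effects, brainstem minus telencephalon. Id1, Id3 and Id4 passed, each with a positive difference. For Id1 the difference was 3.03 ± 0.74 at day 1 (edgeR adjusted p = 0.0141) and 3.29 ± 0.73 at day 2 (adjusted p = 0.0224), for Id3 1.89 ± 0.61 (adjusted p = 0.0479) and 2.72 ± 0.61 (adjusted p = 0.024), and for Id4 2.37 ± 0.59 at day 2 (adjusted p = 0.0435). Of all tested genes, 0.00435% passed at day 0, 9.2% at day 1, 0.878% at day 2 and 4.82% at day 5, against 0, 2, 3 and 0 of the 4 Id genes. Id1 also differed by 2.88 ± 0.74 at day 0, with an adjusted p of 0.263, and Id2 by -0.28 ± 0.42, -0.57 ± 0.42, 1.23 ± 0.42 and 0.90 ± 0.42 at days 0, 1, 2 and 5. Of the 5 calls, 0 were kept without culture 41 or without the culture block, 1 without culture 42, 1 with passage as a covariate, 2 without culture 38 (Id1 and Id3 at day 1) and 3 with limma on TPM. Id3 at day 1 was also lost under DESeq2 (adjusted p = 0.0589), without the filter on low counts (0.0694) and with a length offset (0.0818). Of the 15 astrocyte markers, 4 passed in the same direction at day 2 (Sparcl1, Slc4a4, Fgfr3 and Slc1a3) and 0 at day 1, where 3 had an unadjusted p below 0.05 and DESeq2 and limma called 0. Their part in the result was not tested.

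The third question was how the Id genes differ by region of origin. In control OPCs they were lower in the brainstem. Of 16 fold changes, 11 passed, each of them lower, in Id1 on all 4 days, in Id3 on days 1, 2 and 5, in Id4 on days 0, 2 and 5 and in Id2 on day 5. Of all tested genes, 10.9% passed at day 0, 28% at day 1, 10.3% at day 2 and 14.7% at day 5, against 2, 2, 3 and 4 of the 4 Id genes. At day 2 Id1 had 2.73, 7.95 and 2.41 CPM in brainstem controls, against 30.9, 19.5 and 33.2 CPM in telencephalic controls (-2.76 ± 0.54, edgeR adjusted p = 0.00104). Id3 had 7.20, 18.9 and 10.5 CPM, against 73.6, 35.8 and 82.7 CPM (-2.39 ± 0.45, adjusted p = 0.000681), and Id4 3.55, 3.08 and 2.34 CPM, against 22.8, 9.26 and 23.5 CPM (-2.55 ± 0.43, adjusted p = 0.000236). No brainstem culture reached the lowest telencephalic culture in any of the 3 genes.

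At day 0 Id4 had 1.91, 2.26 and 1.5 CPM in control brainstem, against 20.9, 2.23 and 12 CPM in control telencephalon (-2.49 ± 0.44, edgeR adjusted p = 0.000332). The groups met at culture 41, whose telencephalic Id4 was level with the brainstem. The same culture was low in Id1 (2.00 CPM, against 10.8 and 9.06 CPM in cultures 38 and 42) and Id3 (8.34 CPM, against 43.6 and 26.1 CPM). Id2 at day 5 had 37.9, 32.0 and 22.0 CPM in control brainstem, against 45.5, 42.6 and 91.5 CPM in control telencephalon (-0.88 ± 0.30, edgeR adjusted p = 0.0452), a call lost under DESeq2 (0.112). On day 1 Id2 leaned the other way, at 0.78 ± 0.30 (adjusted p = 0.0516).

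With passage as a covariate none of the 11 calls was left, Id1 at day 2 then standing at -1.49 (adjusted p = 0.174), and Id2 at day 1 was the sole Id gene past the threshold, higher in brainstem by 1.18 (adjusted p = 0.0364). Passage and batch both differ between the regions, and batch and region cannot be told apart. Within a region, batch and culture 38 cannot be told apart either. Without culture 41, 7 of the 11 calls were left, and without culture 42, 5. Without control brainstem cultures 41 and 42 of day 5, which leaves culture 38 alone in that group, Id1, Id2, Id3 and Id4 at day 5 stood at -0.53, -0.41, -0.52 and -1.23. Astrocyte markers were lower in control brainstem as well: 4 of 15 at days 0 and 1 each (with 1, Slc1a2, higher), 9 at day 2 and 6 at day 5, with median log2 fold changes of -1.54, -1.38, -2.50 and -1.48, against a median within 0.04 of 0 over all genes. Gfap at day 2 had 12.9, 50.03 and 10.6 CPM in control brainstem, against 1128, 209 and 1284 CPM in control telencephalon. Mural and fibroblast markers, present at far lower levels, moved the same way, with 2, 2, 7 and 5 of 8 lower at days 0, 1, 2 and 5 and a summed level of 0.157 to 0.305 CPM in control brainstem and 3.94 to 18.4 CPM in control telencephalon at day 2. The part of either list in the Id result was not tested.

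In K27M OPCs no regional difference was detected in the Id family. None of 16 fold changes passed edgeR's test and 0 had an unadjusted p below 0.05, DESeq2 and limma on TPM called 0 and edgeR with wells as samples 1. Of 15 astrocyte markers, 1, 1, 1 and 0 were higher and 1, 0, 0 and 0 lower at days 0, 1, 2 and 5. Of all tested genes 3.84%, 5.58%, 3.26% and 8.84% passed at days 0, 1, 2 and 5. Id1 stood at 0.90 ± 0.52, 0.69 ± 0.51, 0.53 ± 0.50 and 0.12 ± 0.50, and Id4 at -0.50 ± 0.41, -0.23 ± 0.41, -0.18 ± 0.41 and -0.18 ± 0.41. Id3 lay between -0.10 and 0.54 and Id2 between 0.01 and 0.41. At day 2 Id1 had 13.7, 24.9 and 9.95 CPM in K27M brainstem, against 7.12, 8.44 and 19.7 CPM in K27M telencephalon, and these cultures overlapped. Gfap overlapped too, with 101, 189 and 51.9 CPM, against 48.4, 57.9 and 257 CPM. K27M telencephalon culture 42 held a passage 1 well with 31.7 CPM of Id1 and 758 CPM of Gfap at day 2. Other wells of its group had at most 14.6 CPM of Id1 and 67.2 CPM of Gfap.

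Genes of the BMP pathway, which acts upstream of the Id genes, were then read in the same comparisons. Of 12 BMP and related ligands, 8 were tested. Between K27M and control, Bmp4 was the sole ligand to pass edgeR's test, in the brainstem at day 5, where 11.5% of all genes did. It was higher in K27M brainstem at day 5 (5.58 ± 1.36 CPM, against 0.690 ± 0.270 CPM in control, SD, n = 3, log2 fold change 2.99 ± 0.83, edgeR adjusted p = 0.0177) and lower in control brainstem than in control telencephalon on every day (-2.92, -3.29, -2.80 and -2.67 at days 0, 1, 2 and 5). At day 1, where it peaked, Bmp4 had 28.8 ± 20.2 CPM in K27M brainstem, 6.69 ± 4.49 CPM in control brainstem, 58.7 ± 18.5 CPM in K27M telencephalon and 60.2 ± 10.3 CPM in control telencephalon. The K27M effect on Bmp4 in the telencephalon was called on 0 of 4 days. Bmp7 fell in all 4 arms by day 5 (log2 fold changes of -3.96, -4.09, -4.66 and -4.40 in K27M brainstem, control brainstem, K27M telencephalon and control telencephalon). Bmp6 rose in all 4, and was lower in control brainstem than in control telencephalon at day 5 (-3.42 ± 0.96, adjusted p = 0.0147).

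All 7 receptor genes were tested. In K27M brainstem against control, 2 were higher at day 2 (Bmpr1a, a type I receptor of BMPs, by 0.70 ± 0.18, and Acvr1, by 0.64 ± 0.17) and 2 at day 5 (Bmpr1a by 0.57 ± 0.18, and the type II receptor Acvr2a by 0.77 ± 0.11, edgeR adjusted p = 3.54e-05), and none lower, where 3.78% and 11.5% of all genes passed. DESeq2 called 0 of 7 at day 2 and 1 at day 5. Bmpr1a had 136 ± 19.5 CPM in K27M brainstem and 83.8 ± 11.4 CPM in control brainstem at day 2 (SD, n = 3). In the telencephalon 0 of 7 passed between K27M and control on any day under edgeR, DESeq2 or limma, with 1, 1, 3 and 1 at an unadjusted p below 0.05 on days 0, 1, 2 and 5. Bmpr1a was lower in control brainstem than in control telencephalon at days 2 and 5 (-1.04 ± 0.18 and -0.84 ± 0.18), and its K27M effect differed between regions at both days (1.22 ± 0.26 and 1.19 ± 0.26).

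Of the 4 Smads of the BMP branch, Smad9 is itself a known BMP target. It was higher in K27M brainstem at day 2 (1.13 ± 0.33, edgeR adjusted p = 0.0448, not called by DESeq2), lower in control brainstem than in control telencephalon at days 2 and 5 (-2.02 ± 0.33 and -1.97 ± 0.33) and differed in its K27M effect at both days (2.09 ± 0.46 and 1.78 ± 0.45). Smad1 and Smad5 were higher in K27M brainstem at day 5 by 0.63 ± 0.17 and 0.28 ± 0.08, where DESeq2 called 0 of the 4 Smads. The common partner Smad4 passed in no comparison between genotypes or regions and fell by day 5 in the 4 arms, with log2 fold changes of -0.46 to -0.32.

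Of 13 inhibitors of the pathway, 2 were higher in K27M brainstem at day 2 and 4 at day 5, with none lower, where 3.78% and 11.5% of all genes passed. The median log2 fold changes were 0.56 and 0.58, against 0.01 and -0.01 over all genes. The summed level of the list did not lean that way, with 120 to 246 CPM (median 136) in K27M and 135 to 242 CPM (median 225) in control at day 2, and 196 to 266 CPM (median 252) in K27M and 238 to 342 CPM (median 337) in control at day 5. Noggin (Nog), a secreted trap of BMPs, was present at low levels, with 0.511 ± 0.154 CPM in K27M brainstem and 0.119 ± 0.0591 CPM in control brainstem at day 2 (2.13 ± 0.39, edgeR adjusted p = 0.00132). Bambi, a decoy receptor, had 10.0 ± 1.24 CPM in K27M and 3.80 ± 2.10 CPM in control at day 5 (1.47 ± 0.30, adjusted p = 0.00176), and Nbl1 and Twsg1 were higher by 1.37 ± 0.38 and 0.58 ± 0.12. In control brainstem against control telencephalon, 2, 4, 4 and 5 of 13 were lower and 0, 2, 1 and 0 higher at days 0, 1, 2 and 5. Of all genes 10.9%, 28%, 10.3% and 14.7% passed there on the same days. Nog was among the lower ones at day 2 (-3.25 ± 0.40, edgeR adjusted p = 1.69e-06). Smad7, an inhibitory Smad and a BMP and TGF-beta target, rose by 4.09 to 5.28 by day 5 in the 4 arms and did not pass between K27M and control in either region on any day.

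Of 8 BMP target genes other than the Id genes, 2 were higher in K27M brainstem at day 2 (Atoh8, 1.84 ± 0.43, edgeR adjusted p = 0.0121, and Smad9) and 1 at day 5 (Bambi), where 3.78% and 11.5% of all genes passed, so that 1 of 8 at day 5 is near the share of all genes. The lists overlap: Smad9 is also among the Smads, Smad6, Smad7 and Bambi among the inhibitors and Hey1 among the Hes and Hey repressors. The calls of Smad9 and Bambi are therefore those already given above. The median log2 fold changes over the 8 were 0.84 and 0.81, against 0.01 and -0.01 over all genes, while their summed level had medians of 60.01 CPM in K27M and 79.7 CPM in control at day 2, and 133 CPM in K27M and 140 CPM in control at day 5. Atoh8, a basic HLH factor, had 6.71 ± 2.98 CPM in K27M brainstem and 1.89 ± 0.709 CPM in control brainstem at day 2. It was lower in control brainstem than in control telencephalon on all 4 days (-2.0, -1.13, -2.14 and -1.31), as Id1 was, and its K27M effect differed between regions at days 2 and 5 (2.97 ± 0.60 and 2.18 ± 0.60). Msx1 and Msx2 are homeobox genes of the same list. Msx1 was higher in brainstem than in telencephalon in K27M and in control on every day, and Msx2 was lower in K27M telencephalon at day 5 (-2.98 ± 0.52), with 0.449 ± 0.313 CPM in K27M and 3.58 ± 1.39 CPM in control. Comparisons between genotypes and between regions share their control samples, so these values stand side by side and are not independent of each other.

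**Figure D4:**
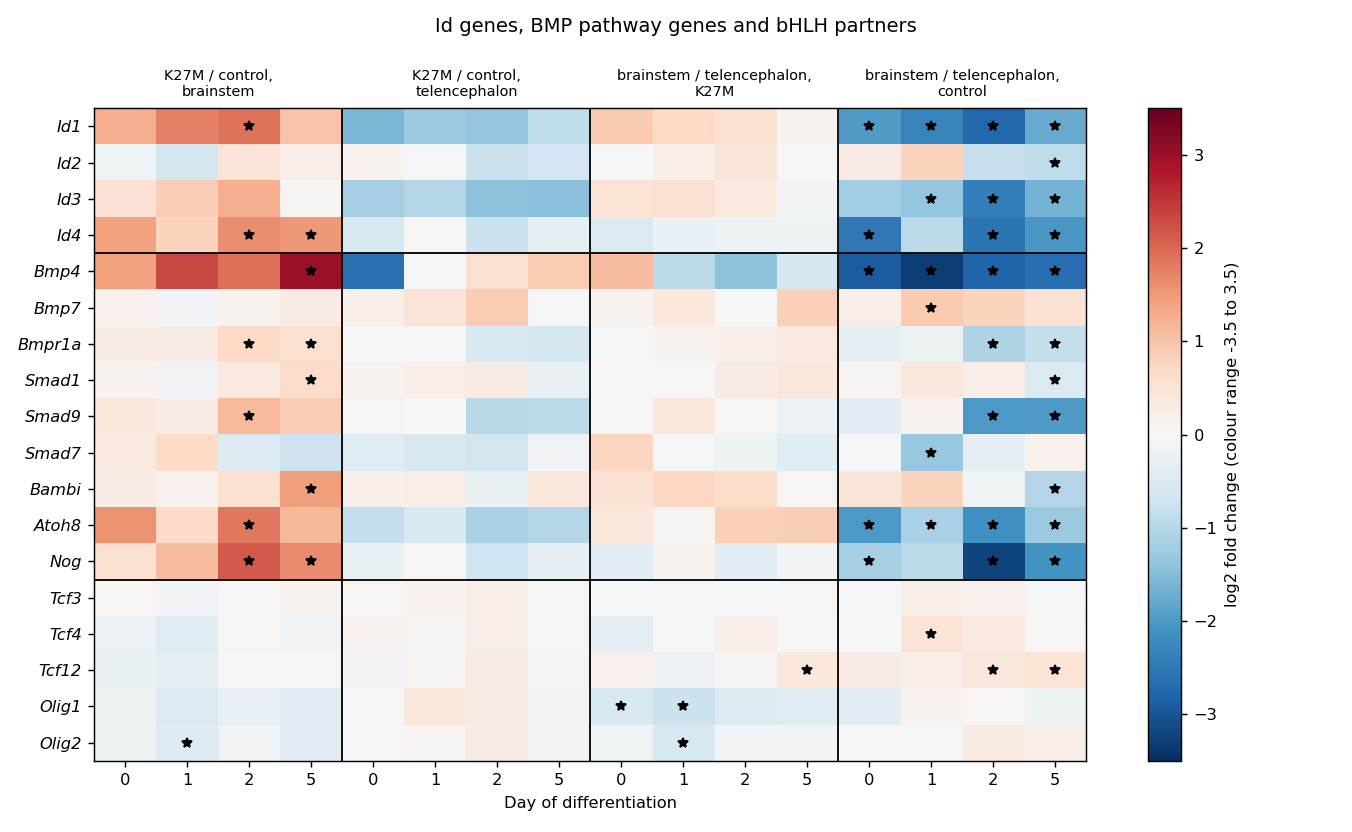
Log2 fold changes (colour, range -3.5 to 3.5) of the 4 Id genes, 9 BMP pathway genes and 5 partner genes (rows, chosen after their values were seen) at days 0, 1, 2 and 5 (x axis) of K27M over control and of brainstem over telencephalon, with stars at an edgeR adjusted p below 0.05. Bmp4, Smad9, Atoh8 and Nog carry stars in the controls of the right-hand block beside Id1, Id3 and Id4, and the rows of the E proteins stay pale, with stars for Tcf4 at day 1 and Tcf12 at days 2 and 5 in controls.

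The E proteins are the direct partners of the Id proteins. None of the 3 E protein genes passed edgeR's test between K27M and control in either region on any day, with an unadjusted p below 0.05 for 1 of 3 at day 0 and 2 of 3 at day 1 in the brainstem and 1 of 3 at day 2 in the telencephalon. DESeq2 called 0, and limma on TPM 1 (brainstem day 5). Tcf12 had 214 ± 22.3 CPM in K27M brainstem and 215 ± 25.6 CPM in control brainstem at day 5. In controls Tcf12 was higher in brainstem at days 2 and 5 (0.41 ± 0.10 and 0.48 ± 0.10), opposite in sign to Id1, Id3 and Id4. At day 5 against day 0 Tcf12 fell in all 4 arms (-1.23 to -0.80) and so did Tcf3 (-0.84 to -0.69), while Tcf4 was not called.

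Olig2, the basic HLH factor that defines the oligodendrocyte lineage, was lower in K27M brainstem at day 1 (352 ± 61.8 CPM, against 479 ± 32.6 CPM in control, SD, n = 3, log2 fold change -0.46 ± 0.13, edgeR adjusted p = 0.0434), a day on which no Id gene passed. Olig2 fell in all 4 arms by day 5 (-1.18 to -0.93). Of the Hes and Hey repressors, Hes1, a Notch target, was higher in K27M brainstem at day 5 (2.17 ± 1.03 CPM in K27M and 0.419 ± 0.192 CPM in control, 2.14 ± 0.49, edgeR adjusted p = 0.00453). It was the sole member of 7 to pass between K27M and control in either region. In the brainstem at day 5, 11.5% of all genes passed, so that 1 of 7 is near the share of all genes.

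Across the 48 cultures and days, Id1, Id3 and Id4 ran together and Id2 apart. The Pearson correlation of log2 CPM was 0.92 for Id1 and Id3, 0.86 for Id1 and Id4 and 0.85 for Id3 and Id4, and 0.02, 0.27 and 0.12 for Id2 with Id1, Id3 and Id4. Points share cultures and days, so these values are descriptions. Among 10385 other protein-coding genes with a mean of at least 5 CPM, those most like Id1 were Gfap (0.93), Id3 (0.92), Gabrb1 (0.90), Samd5 (0.89) and Daam2 (0.89). Those most like Id3 were Id1 (0.92), Gfap (0.91), Mlc1 and Samd5 (0.87 each) and Gabrb1 (0.86), and those most like Id4 were Lamb2 and Ccdc190 (0.94 each) and Dysf, Gfap and Itgb5 (0.93 each). Id2 had no neighbour as close: Cotl1 led with 0.77, before Acsbg1 and Prkd1 (0.74 each) and Gna13 and Slc41a2 (0.73 each).

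**Figure D5:**
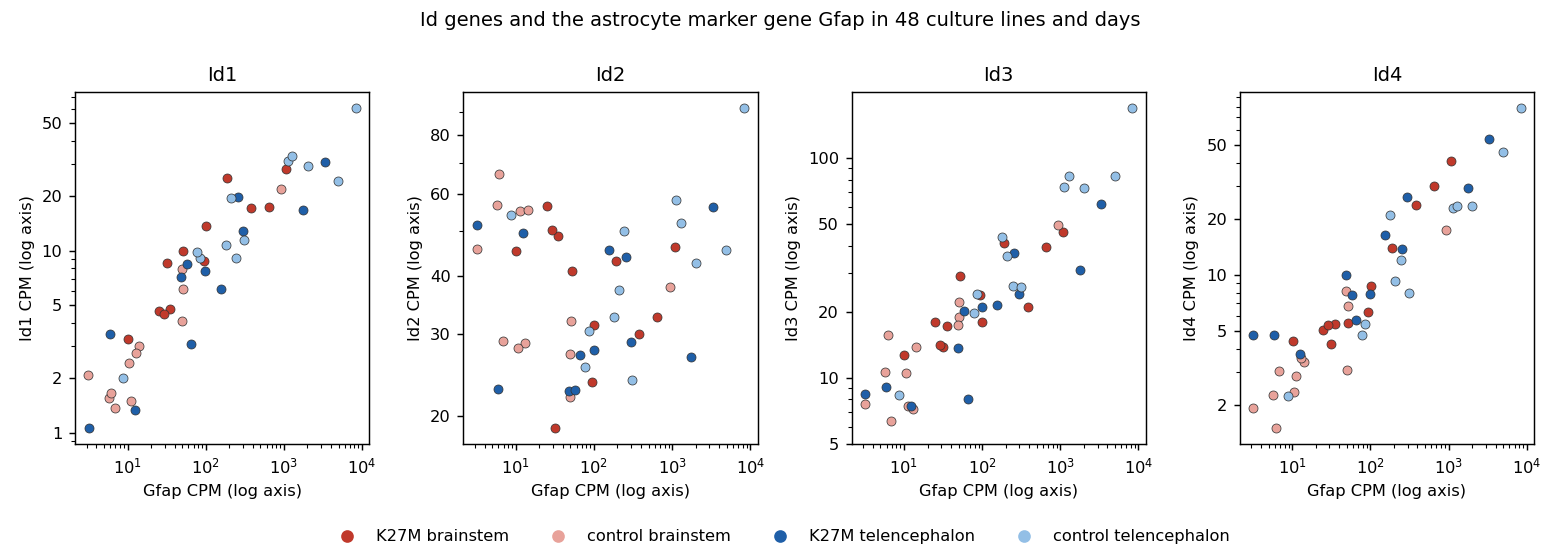
CPM of Id1, Id2, Id3 and Id4 (y axes, log scale) against CPM of the astrocyte gene Gfap (x axis, log scale), 1 point per culture and day (48 points), coloured by arm. Id1, Id3 and Id4 rise with Gfap over the range of 3.17 to 8377 CPM, and Id2 does not.

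In some groups, cultures that stood apart in Id genes stood apart in Gfap too, and 2 examples follow. Control brainstem culture 38 at day 5 had 928 CPM of Gfap, 21.6 CPM of Id1 and 49.6 CPM of Id3, while its cultures 41 and 42 had 51.3 and 49.4 CPM of Gfap, 6.16 and 4.12 CPM of Id1 and 22.1 and 17.5 CPM of Id3. Control telencephalon culture 41 at day 0 had 8.73 CPM of Gfap and the lowest Id1, Id3 and Id4 of its group. In control brainstem at day 0, where Gfap was at 3.17 to 6.17 CPM and the astrocyte water channel Aqp4 at or below 0.419 CPM, Id2 had 45.7 to 66.2 CPM and Id3 7.63 to 15.6 CPM.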

How the data were processed

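The authors quantified total RNA-seq reads with Salmon 1.10.1 on mm10, per the study's methods in the nf-core RNA-seq pipeline with GENCODE vM25 and corrections for sequence and GC bias. The deposited tables give each transcript's expected counts, TPM and effective length. Here expected counts were summed to genes by a GENCODE GRCm38 annotation (139821 of 141084 transcripts, the rest 0.252% to 0.377% of counts), then over the wells of a culture and day, and rounded. edgeR 4.0.16 (R 4.3.3) fitted all 48 cultures and days in one quasi-likelihood model after filterByExpr, with TMM and the culture number within a region as a block, as the study's own model has culture as a term. P-values were adjusted by Benjamini-Hochberg over 23006 genes in each of 28 comparisons. Deviations of same-numbered K27M and control cultures correlated at 0.475, 0.276 and 0.0995 (brainstem) and 0.274, 0.296 and 0.470 (telencephalon). Differently numbered ones correlated at -0.391 to 0.238 (brainstem) and -0.425 to 0.135 (telencephalon). Brainstem K27M culture 42 was closer to control culture 41 (0.238) than to control culture 42 (0.0995), so the numbering does not set cultures 41 and 42 apart there. Alternatives were wells as samples, DESeq2 1.42.0, limma 3.58.1 on log2(TPM + 0.1), no filter, no block, a passage covariate, a length offset and leaving out cultures or libraries. TPM were not scaled further. The gene Rn7s1 alone took 42.0% to 63.3% of the TPM of a library, so the TPM of other genes, and limma on them, shift with it. On simulated data, 34.2% of 199 changed genes were recovered and 0.027% of unchanged genes called (K27M against control, brainstem, day 5, 22812 genes). Counts were drawn independently for each culture and day from the fitted model, with no spread shared over the days of a culture beyond the block. The simulation therefore cannot show the false rate of the real design, and the 34.2% depends on the planted fold changes. Separate cultures are the replicates. The Id genes, gene lists and tests were chosen with earlier results of these data known. Genes named are the Id genes, the 5 most like each, up to 4 called members per list and comparison of at least 1 CPM (largest change first), the E proteins, Olig1, Olig2, Smad6, Smad7, Bmp4, Nog, H3f3a and Prm1. Marker genes given as values beside a result were named after their values were seen.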

Additional observations from a re-analysis of the deposited data

Results flagged for a closer look

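Of 64 groups of wells (4 genes in 16 groups), 9 held a well that stood apart from the others by Dixon's criterion, which chance meets in about 1 in 20 groups of independent wells. Wells here are nested in cultures and the 4 genes share wells, so that rate does not hold for these groups. Of these, 6 came from 2 wells of K27M telencephalon culture 42 at passage 1, 1 harvested at day 1 and 1 at day 2. The day 1 well had 17.2 CPM of Id1 (next highest 3.82), 41.7 CPM of Id3 (10.9) and 13.4 CPM of Id4 (5.94), and the day 2 well had 31.7 CPM of Id1 (14.6), 54.6 CPM of Id3 (30.3) and 24.5 CPM of Id4 (11.9). Gfap was 244 CPM in the day 1 well, against 5.32 to 74.4 CPM in the other wells of its group, and 758 CPM in the day 2 well, against 13.4 to 67.2 CPM. In control brainstem at day 1, 1 well of culture 42 had 3.76 CPM of Id1 (next 2.23). In control brainstem at day 2, 1 well of culture 38 had the lowest Id2, 12.2 CPM (next 24.9), and the highest Id4, 5.55 CPM (next 3.41), with Gfap at 15.3 CPM inside the range of the others.

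The K27M effect differed between regions by the test of the difference itself for Id1 at days 1 and 2 (3.03 and 3.29 on the log2 scale), Id3 at days 1 and 2 (1.89 and 2.72) and Id4 at day 2 (2.37), each brainstem minus telencephalon.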

How the results depend on the processing

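No fold change of an Id gene that passed the test turned its sign under any of 12 alternatives. Of the 33 calls of Id genes, 33 were also called with wells as samples, 30 with DESeq2, 31 without the filter on low counts, 32 with a length offset, 28 with limma on TPM, 33 without the deepest library, 20 without the replicate block, 15 with passage as a covariate, 26, 18 and 18 without cultures 38, 41 and 42, and 27 without control brainstem cultures 41 and 42 of day 5, an alternative chosen after seeing the data. For K27M against control in the brainstem (3 calls of 16), 12 passed with wells as samples, 5 with limma on TPM, 0 without the block, 0 with passage and 0 to 4 with 1 culture left out. In the telencephalon (0 calls), 11 passed with wells as samples, 2 with passage, 1 each with DESeq2, with a length offset and without the deepest library, and 2 without those day 5 cultures. For brainstem against telencephalon, 7 of 16 passed in controls without the block (11 with it), 1 with passage and 5 to 10 with 1 culture left out, and 1 in K27M with wells as samples (0 calls). For the difference of the K27M effects (5 calls), 13 passed with wells as samples, 0 without the block, 1 with passage and 0 to 5 with 1 culture left out, where 3 of the 5 without culture 38 were at day 5 and not among the 5 calls. For day 1 and day 5 against day 0, 5 passed in control telencephalon and 6 in K27M brainstem with wells as samples (3 calls each). Wells of a culture are not independent, so the counts with wells as samples overstate the evidence. Leaving out a culture leaves 2 per group. Leaving out control brainstem cultures 41 and 42 of day 5 leaves culture 38 alone in that group, so the counts under that alternative say little about it. The causes of the other changes were not tested.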
